A study of Homo sapiens with 12 samples.

Results

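The genes described here are the enzymes and transporters that carry glucose through glycolysis to lactate, together with classic target genes of the hypoxia response. A list of 32 gene symbols defined them, and 31 of the 32 were found by symbol among the 23497 genes of the count table. They comprise 24 glycolysis and transport genes and 7 hypoxia response genes, and all 31 passed the filter on low counts that left 17114 genes for testing. The remaining listed gene, CA9, was not analysed here. The measurements are bulk mRNA sequencing of WM1366, a human melanoma cell line with mutant NRAS. The sensitive parent line was kept in the solvent DMSO. Each of 3 daughter lines resistant to a pair of a BRAF inhibitor and a MEK inhibitor was kept in its own pair. These pairs were encorafenib with binimetinib for the EB-resistant line, vemurafenib with cobimetinib for the VC-resistant line, and dabrafenib with trametinib for the DT-resistant line. RNA was taken 72 h after seeding, and each of the 4 lines has 3 libraries, numbered 2, 5 and 6, from 3 independent experiments. Each drug pair is represented by 1 resistant line and the sensitive line saw no drug, so resistance, drug exposure and culture history cannot be told apart.

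Glycolysis begins when glucose enters through GLUT transporters and is phosphorylated by a hexokinase. It splits the sugar in a preparatory phase, recovers ATP in a payoff phase, and ends at pyruvate, which lactate dehydrogenase can reduce to lactate for export through the MCT transporters. When oxygen is scarce the hypoxia-inducible factors, HIF1A or EPAS1 paired with ARNT, escape hydroxylation by the EGLN enzymes and degradation by the VHL complex, and then raise transcription of many of these genes. Melanoma cells and other tumour cells often run glycolysis at a high rate with oxygen present. MAPK signalling, the pathway that the inhibitors target, is known to feed into the same genes.

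HIF binds DNA at a short core, written ACGTG or GCGTG, and these letters were searched on both strands in the 250 bases before each RefSeq gene start on GRCh38.p14, so the palindrome CACGTG counts on both strands. For 28 of the 32 listed genes a start was given in the RefSeq table. No sequence was matched for SLC2A3, SLC16A1, NDRG1 and VEGFA. The letters occurred in 31 of the 54 starts of the listed genes (57.4%) and in 43.2% of all 35116 starts. The palindrome CACGTG occurred in 8 of the 54 starts (14.8%) and in 6.34% of all. The starts are not independent, as HK1 and PFKM have 7 each, some of which overlap. Counted by gene with any matching start, the letters occurred in 23 of the 28 (82.1%) and in 47.4% of all 27305 genes. The palindrome occurred in 8 of the 28 (28.6%) and in 7.73% of all genes. A gene with more starts has more windows in which to match. A match describes letters in a window and is not evidence of binding. The stretches below show 4 members whose mRNA is described in detail further on, limited to bases that lie in no annotated exon. The first 3 belong to genes that fell in all 3 resistant lines, and HK2 fell in 1 and rose in the other 2. Capitals mark the matched letters.
BNIP3: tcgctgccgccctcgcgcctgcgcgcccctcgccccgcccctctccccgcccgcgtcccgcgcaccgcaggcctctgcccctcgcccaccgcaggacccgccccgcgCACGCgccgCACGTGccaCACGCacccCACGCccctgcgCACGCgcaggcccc
PGK1: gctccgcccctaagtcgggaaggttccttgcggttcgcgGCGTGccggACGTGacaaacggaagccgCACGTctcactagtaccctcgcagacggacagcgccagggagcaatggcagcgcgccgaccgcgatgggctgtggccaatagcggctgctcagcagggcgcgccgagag
SLC16A3: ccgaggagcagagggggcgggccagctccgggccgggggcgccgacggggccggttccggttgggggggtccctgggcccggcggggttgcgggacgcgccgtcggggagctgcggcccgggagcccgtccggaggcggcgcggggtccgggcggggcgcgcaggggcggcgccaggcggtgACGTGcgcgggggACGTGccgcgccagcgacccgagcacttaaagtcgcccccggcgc
HK2: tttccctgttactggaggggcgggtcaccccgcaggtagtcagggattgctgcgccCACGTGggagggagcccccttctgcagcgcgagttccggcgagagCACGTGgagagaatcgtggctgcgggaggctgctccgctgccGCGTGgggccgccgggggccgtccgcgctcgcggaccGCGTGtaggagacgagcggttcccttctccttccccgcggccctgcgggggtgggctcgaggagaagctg
The BNIP3 stretch is chr10:131982014-131982173 on the minus strand, with 6 matches in 5 places. The PGK1 stretch is chrX:78103998-78104173 on the plus strand, with 3 matches. The SLC16A3 stretch is chr17:82228792-82229031 on the plus strand, before 1 of 5 listed starts, with 2 matches. The HK2 stretch is chr2:74834920-74835169 on the plus strand, before 1 of 2 listed starts, with 6 matches in 4 places. In the deposited table, on hg38, the genes span chr10:131966455-131982013 (BNIP3, ENSG00000176171), chrX:77910739-78129295 (PGK1, ENSG00000102144), chr17:82217934-82261129 (SLC16A3, ENSG00000141526) and chr2:74834127-74893359 (HK2, ENSG00000159399). These 4 starts were chosen because they hold matches. The windows before the single listed starts of PKM and PGAM1, which also fell in all 3 lines, held 0 matches.

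Libraries held between 40491309 and 54495132 counts in genes. Levels below are CPM, each count taken relative to its library total after scaling by the trimmed mean of M values, and they are compared between genes only per kilobase of the deposited gene length. Differences are log2 fold changes from edgeR's quasi-likelihood F-test with Benjamini-Hochberg adjustment over the 17114 genes. Their standard error was derived as the absolute log2 fold change divided by the square root of the F statistic. A gene is said to have risen or fallen only at an adjusted p under 0.05. Standard errors and p-values measure the spread between 3 experiments on 1 line each. Of 12 melanocyte lineage markers 8 had a row, MITF was the highest of these, and their summed level ran from 66.9 to 80.3 CPM in the sensitive libraries, 83.0 to 90.1 in EB-resistant, 93.8 to 107 in VC-resistant cells, and 95.9 to 105 in DT-resistant libraries. The pigment cell markers TYR, S100B, SOX10 and MLANA had no row. Of the 8 with a row, 3 had a mean over 1 CPM in sensitive cells, against 4, 2 and 2 in EB-, VC- and DT-resistant cells. Among the 6 tested, 2 rose and 2 fell in VC-resistant cells, and 3 rose and 1 fell in DT-resistant cells. In EB-resistant cells 2 rose and 0 fell. Of all genes tested, 28.5%, 27.6% and 29.8% rose and 27.6%, 27.4% and 29.3% fell in EB-, VC- and DT-resistant cells. All 8 fibroblast markers had a row, THY1 being the highest, and their sum ran from 109 to 148 CPM in the sensitive line, 525 to 588 in EB-resistant, 281 to 314 in VC-resistant cells, and 361 to 468 in DT-resistant libraries. Within that list DCN was at 0 in the sensitive libraries and COL1A2 at 0 in the DT-resistant ones. Only 1 of the 8 fibroblast markers had a mean over 1 CPM in sensitive cells, against 5, 3 and 5 in EB-, VC- and DT-resistant cells. Immune markers summed to at most 1.33 CPM, endothelial markers to at most 7.28 CPM, and epithelial markers, mostly KRT18, to 269 to 348 CPM in sensitive and 62.3 to 207 CPM in resistant libraries. The part of these marker differences in the results was not tested.

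Against the sensitive line, more of the glycolysis and transport genes fell than rose in each of the 3 resistant lines, and in the EB-resistant line none of the 24 was called higher. There 17 of 24 fell and the median log2 difference over the 24 was -0.49. In the VC-resistant line 4 rose and 10 fell with a median of -0.11, and in the DT-resistant line 3 rose and 13 fell with a median of -0.26. The median over all 17114 genes lay within 0.01 of 0 in each comparison. The 7 hypoxia genes split: 3 rose and 3 fell in EB-resistant, 2 rose and 3 fell in VC-resistant, and 2 rose and 2 fell in DT-resistant cells. The 3 that rose in EB-resistant cells include EGLN3, which passed the low-count filter only through those libraries. Over all 31 members the counts were 3 higher and 20 lower for EB-resistant, against 28.5% higher and 27.6% lower among all genes tested. They were 6 higher and 13 lower for VC-resistant, against 27.6% and 27.4%, and 5 higher and 15 lower for DT-resistant, against 29.8% and 29.3%. These 3 comparisons share the sensitive libraries and are given side by side. In bulk RNA, fewer expressing cells and less mRNA per cell cannot be told apart.

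**Figure D1:**
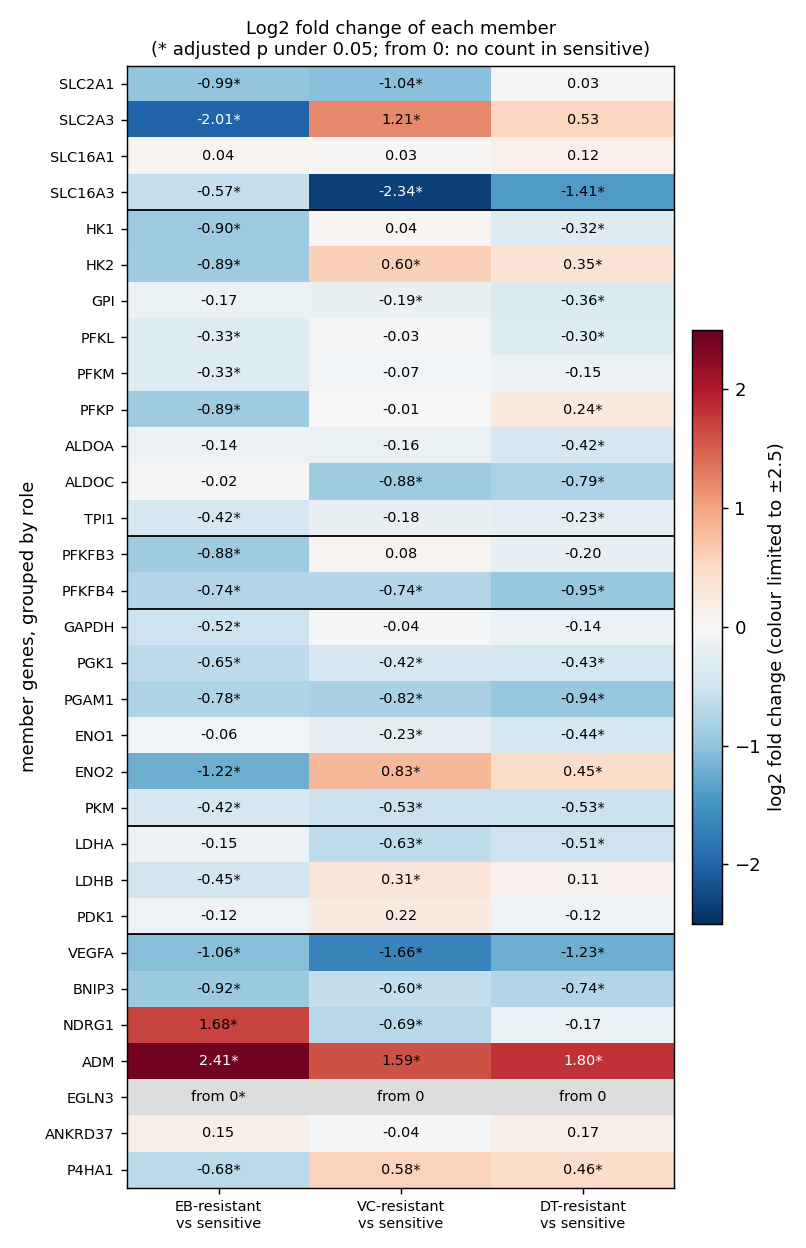
Log2 difference of each of the 31 members (vertical axis, grouped by role) from the sensitive line in each resistant line (horizontal axis), from edgeR. Colour gives the size and direction, and marks show the calls. EGLN3 is grey because the sensitive libraries held 0 counts. The glycolysis genes are mostly on the lower side in the EB-resistant column, while HK2, ENO2 and P4HA1 turn from lower in EB-resistant to higher in the other lines.

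By direction against the sensitive line, 7 genes fell in all 3 resistant lines, namely PFKFB4, PGK1, PGAM1, PKM, SLC16A3, VEGFA and BNIP3. ADM alone rose in all 3. HK2, ENO2 and P4HA1 fell in EB-resistant cells and rose in the other two lines. LDHB and SLC2A3 fell in EB-resistant and rose in VC-resistant cells, PFKP fell in EB-resistant and rose in DT-resistant cells, and NDRG1 rose in EB-resistant and fell in VC-resistant cells. SLC16A1, PDK1 and ANKRD37 were called in none of the 3 comparisons. The share of all genes with each of these patterns was not computed, and the comparisons share the sensitive libraries. The patterns therefore describe the members and do not show that any is unusual.

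Of the 4 transport genes, 3 fell in EB-resistant cells, 1 rose and 2 fell in VC-resistant cells, and 1 fell in DT-resistant cells. Among all genes tested 27.6%, 27.4% and 29.3% fell in EB-, VC- and DT-resistant cells, and 28.5%, 27.6% and 29.8% rose. The 25.0% of transport genes that fell in DT-resistant cells and the 25.0% that rose in VC-resistant cells were near these shares. SLC2A1 encodes GLUT1, the main basal glucose importer, and was the most abundant of the 4 per kilobase in sensitive cells, at 85.4 CPM per kb, against 7.30 for SLC2A3. Its level in the 3 sensitive libraries was 568, 575 and 551 CPM. It stood at 262, 296 and 299 CPM in EB-resistant, at 304, 264 and 254 CPM in VC-resistant, and at 634, 585 and 515 CPM in DT-resistant libraries. The EB- and VC-resistant libraries all lay below the sensitive ones, and the DT-resistant ones overlapped them. The log2 difference was -0.99 ± 0.088 in EB-resistant (adjusted p = 1.97e-07), -1.04 ± 0.088 in VC-resistant (adjusted p = 1.97e-07) and 0.03 ± 0.087 in DT-resistant cells (adjusted p = 0.769). The direct comparisons put DT-resistant cells above both other resistant lines, with EB-resistant minus DT-resistant at -1.02 and VC-resistant minus DT-resistant at -1.08 (adjusted p = 2.07e-07 and 1.16e-06).

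SLC2A3, the gene of the high-affinity glucose transporter GLUT3, followed another order. It stood at 55.4, 41.1 and 36.4 CPM in sensitive libraries, at 8.61, 13.2 and 11.1 CPM in EB-resistant, at 149, 76.9 and 81.2 CPM in VC-resistant, and at 75.0, 65.6 and 51.4 CPM in DT-resistant libraries. EB-resistant libraries were all lowest, VC-resistant libraries all above the sensitive ones, and replicate 2 of the VC-resistant line was well above its other two. SLC2A3 fell by 2.01 ± 0.3 on the log2 scale in EB-resistant (adjusted p = 0.000229) and rose by 1.21 ± 0.28 in VC-resistant cells (adjusted p = 0.00471). In DT-resistant cells the difference was 0.53 ± 0.28 (adjusted p = 0.129), which became 0.0243 when only these 2 groups were fitted and 0.0289 without VC-resistant replicate 2. The near-identical copy SLC2A14 has no row, and how reads that match both were counted is not given in the sources used here, so these values are uncertain to that extent.

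MCT4, the product of SLC16A3, and MCT1, from SLC16A1, both carry lactate across the cell membrane. Per kilobase SLC16A1 was the more abundant, at 33.1 against 12.1 CPM per kb for SLC16A3 in sensitive cells. In VC-resistant cells the values were 33.8 against 2.38 CPM per kb. SLC16A3 stood at 119, 111 and 105 CPM in sensitive cells, 69.6, 80.4 and 75.8 CPM in EB-resistant, 18.4, 24.4 and 23.0 CPM in VC-resistant cells, and 37.6, 46.4 and 41.7 CPM in DT-resistant libraries. No 2 groups overlapped. The log2 difference from sensitive cells was -0.57 ± 0.1 in EB-resistant (adjusted p = 0.000234), -2.34 ± 0.11 in VC-resistant (adjusted p = 4.68e-10) and -1.41 ± 0.11 in DT-resistant cells (adjusted p = 4.1e-08). VC-resistant cells were also below EB-resistant cells, by 1.78 on the log2 scale with an adjusted p of 5.43e-09, and below DT-resistant cells, with a difference of -0.93 and an adjusted p of 2.79e-05. SLC16A1 stayed between 202 and 234 CPM in all 12 libraries and was called in no comparison with the sensitive line, with adjusted p-values of 0.619, 0.683 and 0.095.

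**Figure D2:**
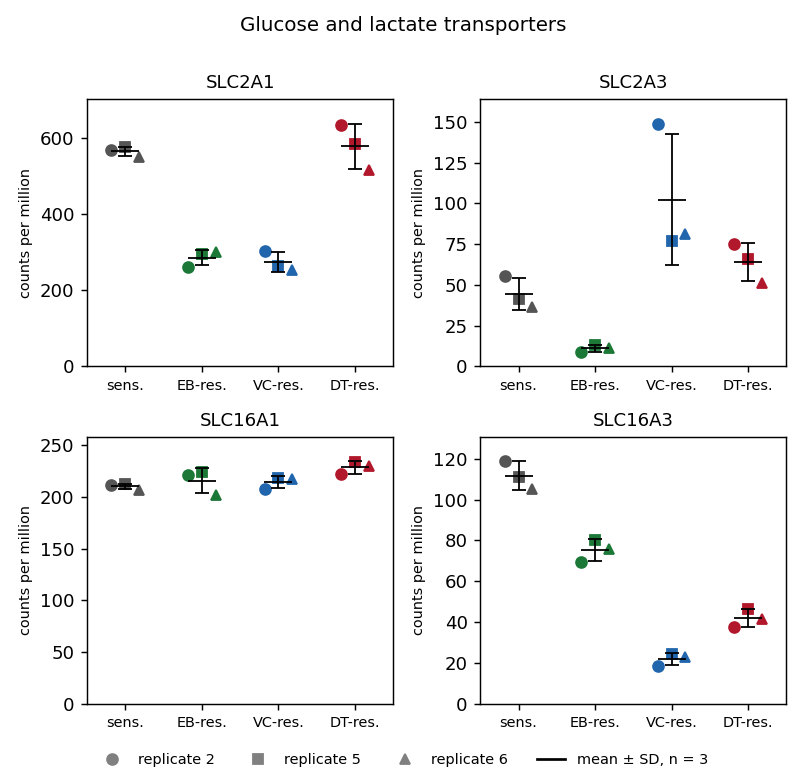
Level in CPM (vertical axis, from 0) of SLC2A1, SLC2A3, SLC16A1 and SLC16A3 in each line (horizontal axis). Shapes mark replicates 2, 5 and 6, and black bars give the mean ± SD of 3 libraries. SLC2A1 is high in the sensitive and DT-resistant lines, SLC2A3 is lowest in EB-resistant cells, and SLC16A3 is lowest in VC-resistant cells at 22.0 ± 3.11 CPM.

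Of the 9 preparatory-phase enzymes, 6 fell in EB-resistant, 2 in VC-resistant cells, and 6 in DT-resistant cells, and 0, 1 and 2 rose. The falls were 66.7%, 22.2% and 66.7% of the list, beside 27.6%, 27.4% and 29.3% of all genes. The rises were 0%, 11.1% and 22.2%, beside 28.5%, 27.6% and 29.8%. The VC-resistant falls were thus no more frequent than among all genes. Hexokinases trap glucose by phosphorylation. HK1, the broadly expressed form, stood at 333 ± 19 CPM in sensitive (SD, n = 3), 179 ± 5.56 in EB-resistant, 342 ± 26.0 in VC-resistant cells, and 267 ± 17.1 in DT-resistant cells. It fell in EB-resistant cells (-0.90 ± 0.074, adjusted p = 8.64e-08) and in DT-resistant cells (-0.32 ± 0.074, adjusted p = 0.00162). HK2, the inducible form that many tumours express, stood at 151, 155 and 134 CPM in sensitive cells, 81.3, 74.7 and 80.8 CPM in EB-resistant, 250, 201 and 216 CPM in VC-resistant cells, and 227, 182 and 153 CPM in DT-resistant libraries. All EB-resistant libraries lay below and all VC-resistant libraries above the sensitive range, while DT-resistant replicate 6 lay inside it. HK2 fell in EB-resistant (-0.89 ± 0.12, adjusted p = 2.21e-05) and rose in VC-resistant cells (0.60 ± 0.12, adjusted p = 0.000787). Its rise in DT-resistant cells (0.35 ± 0.12, adjusted p = 0.0215) was lost without sensitive replicate 6 (adjusted p = 0.081) or DT-resistant replicate 2 (0.20, adjusted p = 0.109).

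Phosphofructokinase catalyses the committed step, and its platelet-type subunit PFKP was the most abundant of the 3 subunits in sensitive cells, at 61.4 CPM per kb against 14.3 for PFKM and 12.1 for PFKL. PFKP stood at 484, 489 and 452 CPM in sensitive cells, 252, 253 and 266 CPM in EB-resistant, 491, 457 and 462 CPM in VC-resistant cells, and 552, 577 and 557 CPM in DT-resistant libraries. EB-resistant libraries formed a low group and DT-resistant libraries a high group, and the VC-resistant range overlapped the sensitive one. PFKP fell by 0.89 ± 0.062 in EB-resistant (adjusted p = 1.33e-08) and rose by 0.24 ± 0.061 in DT-resistant cells (adjusted p = 0.00305), with a difference of -0.01 ± 0.061 in VC-resistant cells (adjusted p = 0.857). PFKM stood at 103 ± 1.96 CPM in sensitive cells, 82.1 ± 3.18 in EB-resistant, 98.5 ± 6.92 in VC-resistant cells, and 93.1 ± 3.80 in DT-resistant cells. PFKL stood at 108 ± 10.04, 85.7 ± 1.96, 106 ± 2.25 and 87.7 ± 3.33 CPM in the same order. Both fell by 0.33 in EB-resistant cells (adjusted p = 0.000652 and 0.000997). PFKL also fell in DT-resistant cells (-0.30, adjusted p = 0.00218), where PFKM differed by -0.15 (adjusted p = 0.0706).

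GPI, the glucose-6-phosphate isomerase, stood at 295, 332 and 330 CPM in sensitive cells, 269, 290 and 294 CPM in EB-resistant, 292, 278 and 271 CPM in VC-resistant cells, and 268, 242 and 238 CPM in DT-resistant libraries. Every resistant library lay below the sensitive range, the highest EB-resistant one at 294 against 295 CPM. GPI fell in DT-resistant cells (-0.36 ± 0.071, adjusted p = 0.000532). Its small fall in VC-resistant cells (-0.19 ± 0.071, adjusted p = 0.0357) was lost by DESeq2 (adjusted p = 0.0513), without the filter (0.073), with only the 2 groups fitted (0.0516), without sensitive replicate 5 or 6 (0.156 and 0.145), without EB-resistant replicate 2, 5 or 6 (0.0538, 0.0616 and 0.0654), and without VC-resistant replicate 5 or 6 (0.115 and 0.145). In EB-resistant cells the GPI difference of -0.17 had an adjusted p of 0.0589, which became 0.0172 without sensitive replicate 2 and 0.0436 without DT-resistant replicate 2. The aldolase ALDOC, the brain-type form, fell from 9.97 ± 1.39 CPM to 5.44 ± 0.75 in VC-resistant cells, and 5.76 ± 1.66 in DT-resistant cells (-0.88 ± 0.18 and -0.79 ± 0.18, adjusted p = 0.00091 and 0.00174). In EB-resistant cells it stood at 9.85 ± 0.844 CPM. ALDOA, the widely expressed aldolase, stood at 39.4 ± 2.26 CPM in sensitive cells, 35.8 ± 1.76 in EB-resistant, 35.4 ± 2.06 in VC-resistant cells, and 29.4 ± 3.43 in DT-resistant cells. It was called in DT-resistant cells only among the 3 comparisons (-0.42 ± 0.092, adjusted p = 0.00107). ALDOA shares 42.3% of its exonic bases in GENCODE 29 with the same-strand gene ENSG00000285043, so its reads can be split or left uncounted and its level of 10.3 CPM per kb is uncertain. TPI1, the triose isomerase, stood at 879 ± 67.3 CPM in sensitive cells, 659 ± 64.7 in EB-resistant, 774 ± 14.1 in VC-resistant cells, and 750.3 ± 24.6 in DT-resistant cells. It fell in EB-resistant cells (-0.42 ± 0.078, adjusted p = 0.000306). Its fall in DT-resistant cells (-0.23 ± 0.078, adjusted p = 0.0199) was lost without sensitive replicate 5 or 6 or DT-resistant replicate 2 (adjusted p = 0.0931, 0.0833 and 0.0708). In VC-resistant cells TPI1 differed by -0.18 (adjusted p = 0.059), and by -0.25 without sensitive replicate 2 (adjusted p = 0.0163).

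Fructose 2,6-bisphosphate is the strongest activator of phosphofructokinase, and the PFKFB enzymes make and remove it. PFKFB3, whose product mainly makes the activator, stood at 43.3, 48.6 and 47.9 CPM in sensitive cells, 26.9, 21.7 and 27.5 CPM in EB-resistant, 48.4, 50.2 and 49.6 CPM in VC-resistant cells, and 40.1, 43.5 and 38.4 CPM in DT-resistant libraries. The EB-resistant libraries were separate from all others. PFKFB3 fell there by 0.88 ± 0.094 on the log2 scale (adjusted p = 1.3e-06), and in DT-resistant cells the difference of -0.20 had an adjusted p of 0.0807, or 0.0465 without sensitive replicate 2. PFKFB4 was scarce, at 5.40, 6.17 and 6.0 CPM in sensitive libraries, 3.0, 4.32 and 3.19 CPM in EB-resistant, 2.62, 3.81 and 4.07 CPM in VC-resistant cells, and 2.96, 2.86 and 3.27 CPM in DT-resistant ones. No resistant library reached the sensitive range. PFKFB4 fell in EB-resistant (-0.74 ± 0.18, adjusted p = 0.00289), VC-resistant (-0.74 ± 0.18, adjusted p = 0.00328) and DT-resistant cells (-0.95 ± 0.19, adjusted p = 0.000446).

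In the payoff phase, 5 of the 6 enzymes fell in EB-resistant cells and 4 of 6 in each of the other lines. ENO2 was the only one to rise, in VC- and DT-resistant cells. The falls were 83.3%, 66.7% and 66.7% of the list, beside 27.6%, 27.4% and 29.3% of all genes. The rises were 0%, 16.7% and 16.7%, beside 28.5%, 27.6% and 29.8%. GAPDH, the dehydrogenase often used as a reference gene, was the most abundant member at 2652 CPM per kb in sensitive cells. It stood at 6354 ± 223 CPM in sensitive cells, 4418 ± 508 in EB-resistant, 6178 ± 316 in VC-resistant cells, and 5757 ± 204 in DT-resistant cells, and fell in EB-resistant cells (-0.52 ± 0.079, adjusted p = 4.37e-05). GAPDH differed in EB-resistant cells also from VC-resistant (-0.48, adjusted p = 9.44e-05) and DT-resistant cells (-0.38, adjusted p = 0.000764). PGK1, the first ATP-making enzyme, stood at 891 ± 76.9 CPM in sensitive cells, 570 ± 42.3 in EB-resistant, 668 ± 24.9 in VC-resistant cells, and 659 ± 69.3 in DT-resistant cells. The fall was -0.65 ± 0.088, -0.42 ± 0.087 and -0.43 ± 0.088 (adjusted p = 1.49e-05, 0.000911 and 0.000562). Its promoter stretch with 3 matches is printed above.

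PGAM1, the phosphoglycerate mutase, stood at 228, 296 and 301 CPM in sensitive libraries, 149, 159 and 172 CPM in EB-resistant, 138, 160 and 169 CPM in VC-resistant cells, and 124, 146 and 160 CPM in DT-resistant ones. The 9 resistant libraries all lay below the sensitive range. The fall was -0.78 ± 0.12, -0.82 ± 0.12 and -0.94 ± 0.12 in EB-, VC- and DT-resistant cells (adjusted p = 4.78e-05, 3.97e-05 and 9.51e-06). PKM, the pyruvate kinase gene, stood at 2538 ± 291 CPM in sensitive cells, 1896 ± 82.8 in EB-resistant, 1758 ± 107 in VC-resistant cells, and 1758 ± 141 in DT-resistant cells. It fell by 0.42, 0.53 and 0.53 on the log2 scale (adjusted p = 0.000743, 0.000122 and 0.000104). Gene counts do not separate its M1 and M2 splice forms.

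Enolase is encoded here by ENO1 and ENO2. ENO1, the common form, stood at 3433 ± 314 CPM in sensitive cells, 3294 ± 219 in EB-resistant, 2920 ± 47.8 in VC-resistant cells, and 2529 ± 204 in DT-resistant cells. It fell in DT-resistant cells (-0.44 ± 0.081, adjusted p = 0.000262). The smaller fall in VC-resistant cells (-0.23 ± 0.081, adjusted p = 0.0233) was lost without sensitive replicate 5 or 6 (adjusted p = 0.115 and 0.119) or VC-resistant replicate 5 or 6 (0.0797 and 0.0748). ENO2, the form named for neurons, stood at 82.3, 88.9 and 79.8 CPM in sensitive cells, 31.8, 36.4 and 39.4 CPM in EB-resistant, 147, 158 and 141 CPM in VC-resistant cells, and 106, 117 and 120 CPM in DT-resistant libraries. All 4 lines were separate, in the order EB-resistant, sensitive, DT-resistant, VC-resistant. ENO2 fell by 1.22 ± 0.086 in EB-resistant (adjusted p = 1.51e-08), and rose by 0.83 ± 0.084 in VC-resistant (adjusted p = 1.3e-06) and 0.45 ± 0.084 in DT-resistant cells (adjusted p = 0.000292).

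At the end of the pathway, lactate dehydrogenase is built from LDHA and LDHB subunits, and PDK1 encodes a kinase that holds pyruvate back from the mitochondrion by inactivating pyruvate dehydrogenase. LDHA, at 240 CPM per kb in sensitive cells against 27.5 for LDHB, stood at 1206, 1559 and 1584 CPM in sensitive cells, 1119, 1346 and 1467 CPM in EB-resistant, 868, 939 and 994 CPM in VC-resistant cells, and 878, 1045 and 1131 CPM in DT-resistant libraries. EB-resistant libraries overlapped the sensitive range, and VC- and DT-resistant libraries lay below it. LDHA fell in VC-resistant (-0.63 ± 0.12, adjusted p = 0.00062) and DT-resistant cells (-0.51 ± 0.12, adjusted p = 0.00271), with a difference of -0.15 in EB-resistant cells (adjusted p = 0.336). LDHB stood at 82.2, 77.8 and 86.0 CPM in sensitive cells, 57.1, 58.9 and 64.1 CPM in EB-resistant, 110, 95.1 and 101 CPM in VC-resistant cells, and 88.4, 89.2 and 87.9 CPM in DT-resistant libraries. It fell by 0.45 ± 0.073 in EB-resistant (adjusted p = 7.97e-05) and rose by 0.31 ± 0.072 in VC-resistant cells (adjusted p = 0.00182), and its difference in DT-resistant cells was 0.11 (adjusted p = 0.206). The DT-resistant libraries lay just above the sensitive range. LDHB shares 33.4% of its exonic bases with the same-strand gene ENSG00000285854. PDK1 stood at 55.3 ± 6.16 CPM in sensitive cells, 50.8 ± 0.958 in EB-resistant, 64.4 ± 4.46 in VC-resistant cells, and 51.0 ± 8.66 in DT-resistant cells. Its difference in VC-resistant cells was 0.22 (adjusted p = 0.109), which passed without sensitive replicate 2 (adjusted p = 0.0403) or DT-resistant replicate 2 (adjusted p = 0.0278).

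Isoenzyme shares were computed as percent of the summed reads of each set, without correction for length, so they are read across lines and not between genes, and no test was made. SLC2A3 gave 7.25 ± 1.44% of SLC2A1 and SLC2A3 reads in sensitive cells (SD, n = 3), 3.68 ± 0.55% in EB-resistant, 26.5 ± 5.5% in VC-resistant cells, and 9.92 ± 0.765% in DT-resistant cells. SLC16A3 gave 34.7 ± 1.25% of the reads of the MCT pair in sensitive cells, 25.9 ± 1.71% in EB-resistant, 9.26 ± 1.01% in VC-resistant cells, and 15.5 ± 1.04% in DT-resistant cells. The LDHA share of the LDHA and LDHB reads was 94.6 ± 0.85% in sensitive and 95.6 ± 0.383% in EB-resistant cells, ranges that overlapped. It was 90.1 ± 1.17% and 91.9 ± 0.979% in VC- and DT-resistant cells. LDHB shares 33.4% of its exonic bases with a same-strand gene, so the LDHA share is uncertain to that extent. HK2 gave 30.6 ± 0.389% of hexokinase reads in sensitive and 30.6 ± 1.64% in EB-resistant cells, where both hexokinases fell, and 39.3 ± 0.959% and 41.0 ± 3.24% in VC- and DT-resistant cells. PFKP gave 69.2 ± 0.271% of phosphofructokinase reads in sensitive cells, 60.5 ± 1.07% in EB-resistant, 69.7 ± 0.164% in VC-resistant cells, and 75.7 ± 0.357% in DT-resistant cells. ENO2 made up 2.39 ± 0.228% of enolase reads in sensitive cells, 1.08 ± 0.0504% in EB-resistant, 4.84 ± 0.307% in VC-resistant cells, and 4.33 ± 0.0731% in DT-resistant cells. Together the 24 glycolysis and transport genes took 1.87 ± 0.116% of all counts in the sensitive line, 1.48 ± 0.122% in EB-resistant, 1.55 ± 0.0138% in VC-resistant cells, and 1.48 ± 0.0614% in DT-resistant cells.

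**Figure D3:**
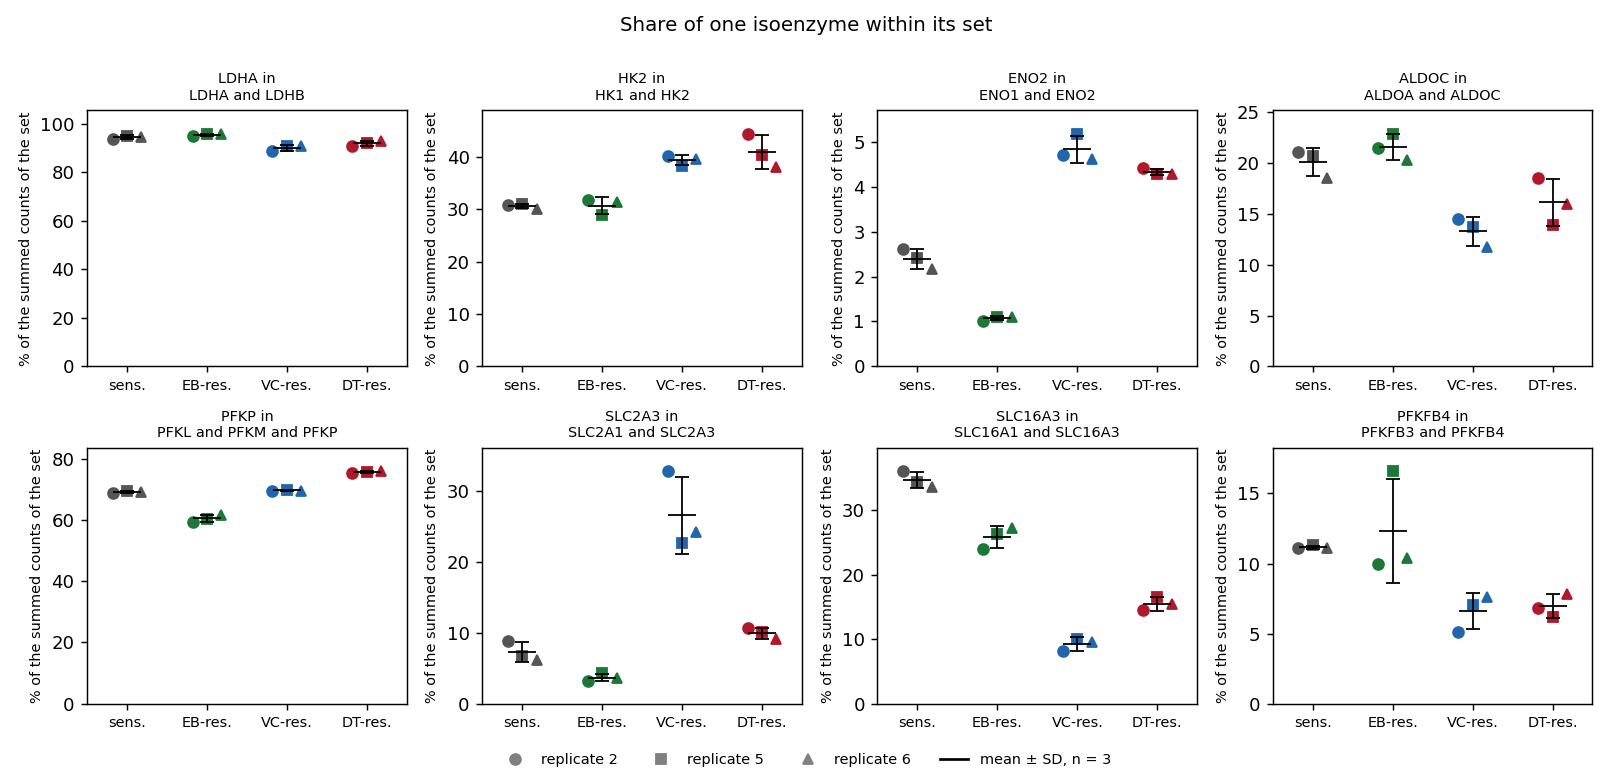
Share of 1 gene in the summed counts of its isoenzyme set (vertical axes, percent) in each line (horizontal axes), in 8 panels. ALDOA and LDHB share 42.3% and 33.4% of their exonic bases with same-strand genes, so the ALDOC and LDHA panels are uncertain. Shapes mark replicates 2, 5 and 6, and bars give the mean ± SD of 3 libraries. The SLC2A3 share is highest in VC-resistant cells at 26.5%, and the SLC16A3 share is lowest there at 9.26%.

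The hypoxia response genes moved in both directions. VEGFA encodes the main angiogenic growth factor and BNIP3 a mitochondrial protein of mitophagy, and both fell in all 3 resistant lines. VEGFA stood at 224, 198 and 177 CPM in sensitive cells, 120, 85.3 and 82.6 CPM in EB-resistant, 65.6, 63.3 and 60.1 CPM in VC-resistant cells, and 80.8, 90.7 and 84.2 CPM in DT-resistant libraries. Every resistant library lay below every sensitive one. The differences were -1.06 ± 0.13, -1.66 ± 0.13 and -1.23 ± 0.13 in EB-, VC- and DT-resistant cells (adjusted p = 6.41e-06, 1.63e-07 and 1.79e-06). BNIP3, whose promoter stretch above holds 6 matches, stood at 102, 107 and 99.1 CPM in sensitive cells, 52.6, 54.3 and 56.4 CPM in EB-resistant, 66.7, 66.6 and 70.0 CPM in VC-resistant cells, and 56.4, 63.2 and 65.0 CPM in DT-resistant libraries. Here too no resistant library reached the sensitive range, and the differences were -0.92 ± 0.071, -0.60 ± 0.07 and -0.74 ± 0.07 (adjusted p = 3.99e-08, 4.75e-06 and 4.68e-07).

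ADM, the gene of the vasodilator peptide adrenomedullin, was higher in all 3 resistant lines. It stood at 14.1, 19.3 and 28.0 CPM in sensitive cells, 95.7, 102 and 127 CPM in EB-resistant, 98.4, 45.8 and 40.6 CPM in VC-resistant cells, and 113, 57.1 and 42.3 CPM in DT-resistant libraries. All 9 resistant libraries lay above the sensitive range, with replicate 2 far above the other two in VC- and DT-resistant cells. The rise was 2.41 ± 0.47 in EB-resistant (adjusted p = 0.00191), 1.59 ± 0.46 in VC-resistant (adjusted p = 0.0167) and 1.80 ± 0.47 in DT-resistant cells (adjusted p = 0.0086). The call in VC-resistant cells was lost without sensitive replicate 2 or 5 (adjusted p = 0.0648 and 0.0549) or VC-resistant replicate 2 (1.09, adjusted p = 0.0699).

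NDRG1, a stress-responsive gene linked to differentiation, stood at 19, 16.2 and 11 CPM in sensitive cells, 42.7, 52.2 and 52.5 CPM in EB-resistant, 10.3, 9.16 and 9.12 CPM in VC-resistant cells, and 12.6, 12.5 and 16.1 CPM in DT-resistant libraries. EB-resistant libraries were all above the others, VC-resistant libraries all below the sensitive ones, and DT-resistant libraries inside the sensitive range. NDRG1 rose by 1.68 ± 0.17 in EB-resistant (adjusted p = 1.08e-06) and fell by 0.69 ± 0.17 in VC-resistant cells (adjusted p = 0.00327). In DT-resistant cells the difference was -0.17 (adjusted p = 0.414), and -0.35 without sensitive replicate 6 (adjusted p = 0.0449).

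P4HA1, the catalytic subunit of collagen prolyl 4-hydroxylase, stood at 64.3, 66.3 and 67.5 CPM in sensitive cells, 39.8, 43.2 and 40.5 CPM in EB-resistant, 110, 89.1 and 97.9 CPM in VC-resistant cells, and 103, 84.5 and 84.9 CPM in DT-resistant libraries. EB-resistant libraries were below, and VC- and DT-resistant libraries above, all sensitive ones. P4HA1 fell by 0.68 ± 0.091 in EB-resistant (adjusted p = 1.31e-05), and rose by 0.58 ± 0.091 in VC-resistant (adjusted p = 7.12e-05) and 0.46 ± 0.091 in DT-resistant cells (adjusted p = 0.000456). EGLN3, a HIF prolyl hydroxylase that HIF itself induces, was near the detection limit. It had 0 counts in the 3 sensitive libraries and stood at 0.271, 0.244 and 0.294 CPM in the EB-resistant ones, at least 4.26-fold higher than a floor of 3 counts per library, or 0.0634 CPM (adjusted p = 0.000448). EGLN3 passed the low-count filter only through the EB-resistant libraries, where it is high. Its adjusted p is therefore no independent support for a rise. A single VC-resistant library, at 0.022 CPM, and a single DT-resistant library, at 0.0691 CPM, held any EGLN3 counts. ANKRD37, an ankyrin-repeat target of HIF, stood at 3.30 ± 0.0728 CPM in sensitive cells, 3.67 ± 0.774 in EB-resistant, 3.22 ± 0.403 in VC-resistant cells, and 3.72 ± 0.347 in DT-resistant cells and was called in none of the 3 comparisons. ANKRD37 shares 35.2% and GAPDH 14.2% of its exonic bases with genes on the opposite strand, whose reads cannot be told apart where counting ignores strand.

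**Figure D4:**
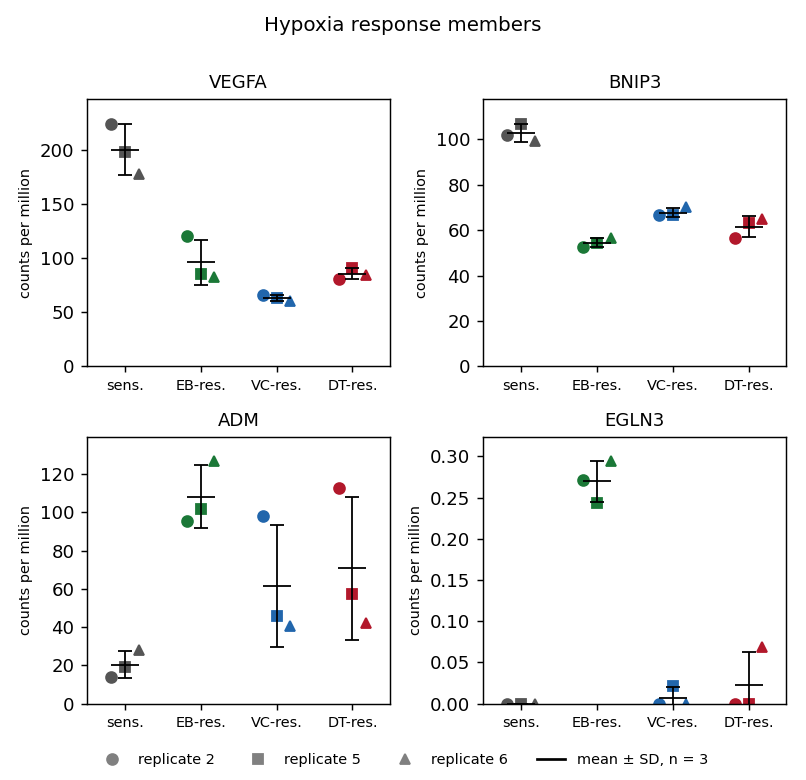
Level in CPM (vertical axes, from 0) of VEGFA, BNIP3, ADM and EGLN3 in each line (horizontal axes). Shapes mark replicates 2, 5 and 6, and bars give the mean ± SD of 3 libraries. VEGFA and BNIP3 are highest and ADM lowest in the sensitive line, and EGLN3 is detected in all 3 libraries of the EB-resistant line only.

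The resistant lines were also compared with each other. Against VC-resistant cells 6 members were higher and 15 lower in EB-resistant cells, where 29.6% and 28.8% of all genes were called. Against DT-resistant cells 8 were higher and 12 lower, where 28.4% and 28.8% of all genes were called. The 8 became 5 without EB-resistant replicate 5 or without EB-resistant replicate 6. Both the 6 and the 8 include EGLN3, which passed the low-count filter only through the EB-resistant libraries. Its calls here are therefore no independent support for a higher level. VC- and DT-resistant cells differed in 7 members, 3 higher and 4 lower in VC-resistant cells, where 7.08% and 8.71% of all genes were called. Replicate numbers paired these 2 lines, and with the replicate block 7 members were higher and 4 lower, where 9.3% and 11.2% of all genes were called in that fit. The 7 were HK1, PFKL and ENO2 as without the block, plus PFKFB3, ALDOA, ENO1 and LDHB (adjusted p = 0.0421, 0.0357, 0.0334 and 0.044). The 4 lower ones were PFKP, SLC2A1, SLC16A3 and VEGFA. Leaving out single libraries moved the 3 and the 4 to between 2 and 5 each. PFKL was lost without VC-resistant replicate 6 (adjusted p = 0.052), and VEGFA without VC-resistant replicate 5 or 6 or DT-resistant replicate 5 or 6 (adjusted p = 0.0811, 0.109, 0.1 and 0.0619).

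Several genes lay on opposite sides of the sensitive line in 2 resistant lines, and for these the direct comparison of the lines is given as a size with its standard error. The genes were picked for opposite calls against the same sensitive libraries, so these gaps add no support to those calls. EB-resistant cells were below VC-resistant cells for SLC2A3 (-3.22 ± 0.31), ENO2 (-2.05 ± 0.087), HK2 (-1.49 ± 0.12), P4HA1 (-1.26 ± 0.092) and LDHB (-0.76 ± 0.073). NDRG1 went the other way and was higher in EB-resistant than in VC-resistant cells by 2.37 ± 0.17. EB-resistant cells were below DT-resistant cells for ENO2 (-1.67 ± 0.087), HK2 (-1.25 ± 0.12), P4HA1 (-1.14 ± 0.092) and PFKP (-1.13 ± 0.062). Of the same genes, VC- and DT-resistant cells differed for ENO2 and PFKP in the fit without the replicate block. ENO2 was higher in VC-resistant cells by 0.38 (adjusted p = 0.00609). PFKP was lower in VC-resistant cells (-0.26, adjusted p = 0.00902), a call that was lost without VC-resistant replicate 5 or 6 (adjusted p = 0.0509 and 0.0539). HK2 and P4HA1 were not called between these lines, with VC-resistant minus DT-resistant at 0.25 ± 0.12 and 0.12 ± 0.09 (adjusted p = 0.197 and 0.426). LDHB differed by 0.20 (adjusted p = 0.0696) and was called with the replicate block (adjusted p = 0.044). NDRG1 differed by -0.53 (adjusted p = 0.0509). It was called with median-of-ratios size factors (0.0492), DESeq2 (0.0185), only the 2 groups (0.0375), and without sensitive replicate 2 or 6 (0.0263 and 0.0118).

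**Figure D5:**
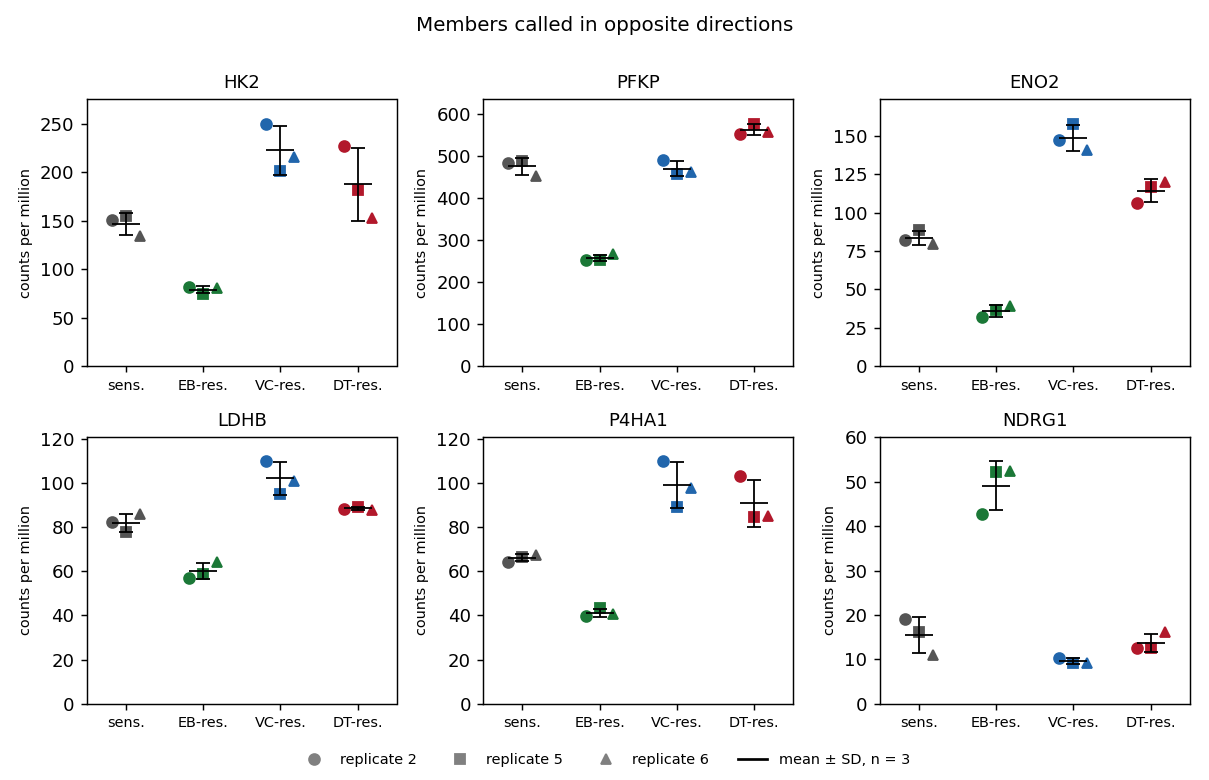
Level in CPM (vertical axes, from 0) of HK2, PFKP, ENO2, LDHB, P4HA1 and NDRG1 in each line (horizontal axes). Shapes mark replicates 2, 5 and 6, and bars give the mean ± SD of 3 libraries. EB-resistant libraries are the lowest for the first 5 genes and the highest for NDRG1.

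The machinery that sets HIF activity was measured as a list of 15 genes, of which 8 rose and 3 fell in EB-resistant, 5 rose and 3 fell in VC-resistant, and 6 rose and 4 fell in DT-resistant cells. The share of the list that rose was 53.3%, 33.3% and 40.0% in EB-, VC- and DT-resistant cells, beside 28.5%, 27.6% and 29.8% of all genes tested. The share that fell was 20%, 20% and 26.7%, beside 27.6%, 27.4% and 29.3%. These shares describe the list, as they do for the lists that follow, and no list was tested against all genes. EPAS1, which encodes HIF2A, stood at 31.0 ± 3.32 CPM in sensitive cells, 50.5 ± 3.46 in EB-resistant, 86.2 ± 11.8 in VC-resistant cells, and 95.5 ± 10.4 in DT-resistant cells. It rose in all 3 lines (0.70 ± 0.11, 1.47 ± 0.11 and 1.62 ± 0.11, adjusted p = 6.16e-05, 6.77e-08 and 1.89e-08). HIF1A stood at 360.0 ± 6.85 CPM in sensitive and 359.8 ± 6.27 in EB-resistant cells, and rose in DT-resistant cells to 543 ± 46.6 (0.59 ± 0.099, adjusted p = 0.00011). Its rise in VC-resistant cells (0.28 ± 0.099, adjusted p = 0.0233) was lost without sensitive replicate 5 or 6 (adjusted p = 0.0626 and 0.0503) or VC-resistant replicate 2 (0.14, adjusted p = 0.152). CUL2, the scaffold of the VHL ubiquitin ligase, fell in all 3 lines (-1.12, -1.02 and -0.95 with SE 0.088, adjusted p = 5.38e-08, 2.48e-07 and 3.82e-07). CITED2, which competes with HIF for its coactivators, rose from 172 ± 8.0 CPM to 738 ± 116 in EB-resistant cells (2.10 ± 0.19, adjusted p = 2.48e-06) and to 341 ± 90.7 in VC-resistant cells (0.99 ± 0.18, adjusted p = 0.000823). It also rose in DT-resistant cells, to 256 ± 46.5 CPM (0.58 ± 0.18, adjusted p = 0.0181), a call that was lost without sensitive replicate 5 or 6 (adjusted p = 0.0527 and 0.0618) or DT-resistant replicate 2 (adjusted p = 0.0999). EGLN1, the main HIF prolyl hydroxylase, fell in EB-resistant cells (-0.38 ± 0.09, adjusted p = 0.00205), and differed by -0.11 and 0.05 in VC- and DT-resistant cells (adjusted p = 0.331 and 0.646). VHL, which recognises hydroxylated HIF, fell in DT-resistant cells (-0.41 ± 0.11, adjusted p = 0.00587). In VC-resistant cells it differed by -0.23 (adjusted p = 0.105), and by -0.33 without VC-resistant replicate 6 (adjusted p = 0.0324).

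Among 25 tested further genes that HIF is known to induce, 9 rose and 5 fell in EB-resistant, 8 rose and 4 fell in VC-resistant, and 12 rose and 8 fell in DT-resistant cells. In the same order, 36.0%, 32.0% and 48.0% of this list rose, beside 28.5%, 27.6% and 29.8% of all genes, so that the VC-resistant count in particular was near the share of all genes. The falls were 20%, 16% and 32.0% of the list, beside 27.6%, 27.4% and 29.3%. KDM3A, a histone demethylase, rose in VC-resistant (0.91 ± 0.11, adjusted p = 6.25e-06) and DT-resistant cells (1.21 ± 0.11, adjusted p = 2.87e-07), and its difference in EB-resistant cells was -0.17 (adjusted p = 0.214). ERO1A, an oxidase of the endoplasmic reticulum, fell in EB-resistant cells from 167 ± 2.69 to 98.2 ± 4.46 CPM (-0.76 ± 0.069, adjusted p = 2.25e-07), and differed by 0.09 in each of the other lines (adjusted p = 0.288 and 0.257). AK4, a mitochondrial adenylate kinase, fell in DT-resistant cells from 42.8 ± 3.83 to 14.4 ± 1.92 CPM (-1.57 ± 0.11, adjusted p = 1.85e-08), and stood at 40.2 ± 2.57 and 44.0 ± 3.81 CPM in EB- and VC-resistant cells. MXI1, a repressor in the MYC network, rose in all 3 lines (0.63, 0.75 and 0.90 with SE 0.15, adjusted p = 0.00203, 0.000664 and 0.000117).

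The branches that leave glycolysis and the pathways that follow it were measured as further lists. Of 13 genes of the pentose phosphate, serine and hexosamine branches, 6 rose and 5 fell in EB-resistant, 6 rose and 4 fell in VC-resistant, and 5 rose and 5 fell in DT-resistant cells. That is 46.2%, 46.2% and 38.5% risen, where 28.5%, 27.6% and 29.8% of all genes rose, and 38.5%, 30.8% and 38.5% fallen, where 27.6%, 27.4% and 29.3% of all genes fell. RPIA, the ribose-5-phosphate isomerase of the pentose phosphate pathway, fell in EB-resistant (-1.31 ± 0.095, adjusted p = 2.1e-08) and DT-resistant cells (-0.38 ± 0.092, adjusted p = 0.00255), and differed by 0.05 in VC-resistant cells (adjusted p = 0.69). GFPT1, which starts the hexosamine branch, fell in EB-resistant cells (-1.26 ± 0.11, adjusted p = 2.09e-07) and rose in VC-resistant (0.69 ± 0.11, adjusted p = 8.49e-05) and DT-resistant cells (0.47 ± 0.11, adjusted p = 0.00178). PHGDH, the first enzyme of serine synthesis, rose in all 3 lines, from 188 ± 50.4 CPM in sensitive to 283 ± 24.3 in EB-resistant, 383 ± 26.0 in VC-resistant cells, and 337 ± 9.46 in DT-resistant cells. The rises were 0.59, 1.02 and 0.84 with SE 0.14 (adjusted p = 0.0031, 5.54e-05 and 0.000228).

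Of 22 genes of pyruvate dehydrogenase and the tricarboxylic acid cycle, 9 rose and 7 fell in EB-resistant, 8 rose and 2 fell in VC-resistant, and 9 rose and 3 fell in DT-resistant cells. Rises made up 40.9%, 36.4% and 40.9% of the list (28.5%, 27.6% and 29.8% of all genes), and falls 31.8%, 9.09% and 13.6% (27.6%, 27.4% and 29.3% of all genes). PC, the pyruvate carboxylase, rose in EB-resistant (0.93 ± 0.081, adjusted p = 1.48e-07) and DT-resistant cells (0.63 ± 0.081, adjusted p = 9.03e-06), and differed by 0.01 in VC-resistant cells (adjusted p = 0.895). CS, the citrate synthase, fell in EB-resistant cells (-0.64 ± 0.061, adjusted p = 3.95e-07), and differed by 0.05 and -0.08 in VC- and DT-resistant cells (adjusted p = 0.495 and 0.252). MDH2, the mitochondrial malate dehydrogenase, rose in VC-resistant (0.54 ± 0.061, adjusted p = 3.74e-06) and DT-resistant cells (0.48 ± 0.061, adjusted p = 9.64e-06), and differed by 0.07 in EB-resistant cells (adjusted p = 0.342). Of 25 tested further glycolysis and transport isoenzymes and regulators, 7 rose and 6 fell, 7 rose and 11 fell, and 6 rose and 9 fell in EB-, VC- and DT-resistant cells. The rises, at 28.0%, 28.0% and 24.0%, were near the shares of all genes (28.5%, 27.6% and 29.8%), and the falls were 24.0%, 44.0% and 36.0%, beside 27.6%, 27.4% and 29.3%. PDP1, the phosphatase that reactivates pyruvate dehydrogenase, fell in all 3 (-0.84, -1.09 and -0.79, adjusted p = 1.15e-07, 1.57e-08 and 2.74e-07). Of 9 transcriptional regulators of glucose use, 5 rose and 3 fell, 3 rose and 3 fell, and 4 rose and 3 fell. With 9 genes this is 55.6%, 33.3% and 44.4% risen, beside 28.5%, 27.6% and 29.8% of all genes. The fallen share was 33.3% in each line, beside 27.6%, 27.4% and 29.3% of all genes. MYC, which activates many glycolysis genes, fell in EB-resistant cells from 95.1 ± 12.1 to 37.9 ± 1.80 CPM (-1.33 ± 0.31, adjusted p = 0.0053). In VC-resistant cells MYC differed by 0.63 (adjusted p = 0.112), and by 0.86 without VC-resistant replicate 6 (adjusted p = 0.037). TXNIP, which limits glucose uptake and is induced by glucose, varied widely between sensitive libraries (333 ± 148 CPM). It fell in VC-resistant (-1.20 ± 0.37, adjusted p = 0.0225) and DT-resistant cells (-1.16 ± 0.37, adjusted p = 0.0239). The first call was lost without sensitive replicate 2 or VC-resistant replicate 2 or 6 (adjusted p = 0.088, 0.0584 and 0.0805), and the second without sensitive replicate 2 or DT-resistant replicate 2 or 6 (adjusted p = 0.0966, 0.053 and 0.0802). In EB-resistant cells TXNIP differed by 0.59 (adjusted p = 0.209), and by 0.99 without sensitive replicate 2 (adjusted p = 0.0459). TFAM, the activator of mitochondrial DNA transcription, fell in all 3 lines (-0.87, -0.98 and -1.18, adjusted p = 2.86e-06, 1.39e-06 and 1.67e-07), and PPARGC1A, a coactivator of mitochondrial genes, rose in all 3 (1.39, 1.84 and 1.49, adjusted p = 7.3e-06, 6.66e-07 and 4.06e-06).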

How the data were processed

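Poly(A) RNA libraries of 12 samples, 3 in each of 4 lines, were made with a strand-specific kit, per the labels' protocols. Per the submitters' processing notes, reads were handled with bcl2fastq 2.20.0, STAR 2.7.10b, hg38, featureCounts 2.0.1 and DESeq2 1.38.3. Not given in the sources used here are doses, the annotation release, how multi-mapping reads were treated and whether counting used strand. The authors deposited whole-number read counts per gene and a normalised count table, a signal per gene that equals the count divided by a factor per library between 0.8221 and 1.1693, with 100.0% of values within 0.05. The deposited counts were tested. Library and group came from the labels, and 0 columns were left unmatched.

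Genes were filtered with filterByExpr (17114 of 23497 kept), scaled by the trimmed mean of M values and fitted by group in edgeR 4.0.16 (R 4.3.3, robust quasi-likelihood, 8 residual degrees of freedom), with Benjamini-Hochberg adjustment over all genes tested and a threshold of 0.05. Symbols matched members, and 18 symbols occur more than once, none of them a member's. The members and the other lists were chosen with earlier results of these data known. Values in every library are given for members called with an absolute log2 change of at least 1 against the sensitive line and for the member of each role with the lowest adjusted p in each such comparison. P4HA1 was added to these after its values were seen. Other members are given by group means, and SLC16A1 by its range. From each other list the rule took up to 2 genes per direction and comparison by adjusted p, and HIF1A, EPAS1, EGLN1, VHL, MYC, TXNIP and PPARGC1A, of which the text prints a selection made after the values were seen. Samples with the same replicate number deviated together for VC- and DT-resistant cells (correlations of 0.337, 0.151 and 0.195 for numbers 2, 5 and 6, over all genes tested), so numbers were taken to pair these 2 lines. Adjusted p-values between these lines come from the fit without the replicate block unless the block is named. In every other pair of lines the correlations ran from 0.001 to 0.11, and at least 2 of the 3 were below 0.1. On simulated counts for EB-resistant against sensitive libraries, 32 of 67, 58 of 67 and 66 of 66 genes changed by 1.5-, 2- and 4-fold were recovered, with 15 further calls among the 15959 genes tested. The simulation changed only those genes and fitted only 2 groups. The main fit used 4 groups and called 28.5% of genes higher and 27.6% lower in this comparison. The simulated rates therefore do not carry over to the main fit. Alternatives were median-of-ratios size factors, DESeq2 1.42.0, no filter, a replicate block, only the 2 groups compared, and each library left out. Promoter sequences came from RefSeq on GRCh38.p14 and exon positions from GENCODE 29. Rows of pseudogenes held at most 0.605% of the counts of the member they copy.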

Additional observations from a re-analysis of the deposited data

Results flagged for a closer look

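A set of 7 genes was called in opposite directions against the sensitive line in 2 resistant lines, by edgeR's quasi-likelihood test with Benjamini-Hochberg adjustment. The direct differences between those lines follow as sizes. They share the libraries on which the genes were picked and add no support to the opposite calls. The share of all genes with opposite calls was not computed. HK2, a hexokinase, was lower in EB-resistant than in VC-resistant cells by a log2 difference of -1.49, and than in DT-resistant cells by -1.25. ENO2, an enolase, differed by -2.05 and -1.67 in the same comparisons, and P4HA1, a collagen hydroxylase subunit, by -1.26 and -1.14. PFKP differed between EB- and DT-resistant cells by -1.13. Between EB- and VC-resistant cells LDHB differed by -0.76, SLC2A3 by -3.22 and NDRG1 by 2.37. The HK2 call in DT-resistant against sensitive cells was not kept without sensitive replicate 6 or DT-resistant replicate 2.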

How the results depend on the processing

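The counts of members called against the sensitive line and between EB- and VC-resistant cells stayed within 1.5 times under median-of-ratios size factors, DESeq2, no filter, the replicate block, fits of only the 2 groups and each library left out. Between EB- and DT-resistant cells the 8 higher members, EGLN3 among them, ranged from 5 to 8 with 1 library left out. Between VC- and DT-resistant cells, the 3 higher members became 5 with DESeq2, 7 with the replicate block and 2 to 5 with 1 library left out, and the 4 lower members 2 to 5. Over all genes the same comparison gave 756 to 1306 higher and 966 to 1596 lower with 1 library left out, the low ends without VC-resistant replicate 6. The block also brought in PFKM in DT-resistant (adjusted p = 0.0409) and TPI1 in VC-resistant cells against sensitive (0.0306), ENO1 between EB- and VC-resistant cells (0.0368), and TPI1, PGK1 and PGAM1 between EB- and DT-resistant cells (0.0211, 0.00678 and 0.0335). Beside these and the 4 genes between VC- and DT-resistant cells it changed no member's call. Some differences that were not called changed sign, at 2 decimals, when 1 library was left out, with these lowest and highest log2 values. Against sensitive cells they were -0.02 and 0.09 for HK1, -0.09 and 0.02 for PFKL, -0.04 and 0.02 for PFKP and -0.08 and 0.08 for ANKRD37 in VC-resistant cells, -0.11 and 0.07 for ALDOC in EB-resistant cells, and -0.03 and 0.11 for SLC2A1, -0.21 and 0.02 for PDK1 and -0.35 and 0.01 for NDRG1 in DT-resistant cells. Between EB- and VC-resistant cells they were -0.01 and 0.06 for GPI, -0.04 and 0.06 for ALDOA, -0.04 and 0.09 for PGAM1 and -0.03 and 0.05 for SLC16A1. Between EB- and DT-resistant cells they were -0.01 and 0.28 for VEGFA and -0.14 and 0.14 for ANKRD37. Between VC- and DT-resistant cells they were -0.26 and 0.16 for ALDOC, -0.06 and 0.09 for PGK1, -0.72 and 0.31 for ADM and -3.22 and 1.90 for EGLN3. The cause was not tested. Over members and settings, 3018 gene values kept direction and side of the threshold, 63 lost a call, 47 gained one and 30 changed sign.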

Other observations

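Some members ranked the replicate numbers alike in all 4 lines. PGK1, PGAM1 and LDHA were lowest in replicate 2 and highest in replicate 6 of every line, and PKM was highest in replicate 6 of every line. PFKM was highest in replicate 2 and SLC16A1 in replicate 5 of each. The sensitive libraries of LDHA, at 1206, 1559 and 1584 CPM, and of PGAM1, at 228, 296 and 301 CPM, give the size of this order. No test was made of it, and the share of all genes with such an order was not computed.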
